A study of Mus musculus with 8 samples.

Results

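Imprinted genes are transcribed mainly from the copy inherited from 1 parent, and 49 known mouse imprinted genes were followed here in Lin-Sca1+Kit+ (LSK) cells, the bone marrow fraction that holds haematopoietic stem cells and early progenitors. The genes were taken from a list of gene names: all 49 were rows of the deposited table of 26146 genes. Igf2r and its antisense transcript Airn are imprinted too and were not on the list. Each gene was given 1 class from general knowledge of the mouse, 22 of the 49 as maternally expressed and 26 as paternally expressed. Gnas, for which the active copy depends on the transcript, was kept apart. Other genes may depend on the transcript or tissue as well, and H13, classed as maternally expressed, has transcripts that differ between the parental copies. These classes are therefore approximate. PolyA RNA was sequenced from sorted cells of 8 mice, 1 library per mouse, 4 wild type and 4 Jmjd6 KO. The KO mice carried floxed Jmjd6 alleles, which Cre recombinase removed in cells of the blood lineages. The product of Jmjd6 is an oxygenase of the JmjC family that acts on lysines of other proteins, splicing factors among them. The sources used here do not give the Cre driver, the strain, the age or sex of the mice, or whether wild type mice carried the floxed alleles or Cre.

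Imprints are DNA methylation marks set in the egg or the sperm at imprinting control regions and kept through the cell divisions of the embryo and adult. The zinc finger protein ZFP57 binds the methylated control regions and recruits TRIM28 and DNA methyltransferases, which keep the mark. Most imprinted genes lie in domains, in which a control region sets the expression of several genes, often through a long noncoding RNA. In haematopoietic stem cells, imprinted growth regulators such as Cdkn1c, Grb10 and the H19-Igf2 pair are known for roles in quiescence and self-renewal. Many of the genes are imprinted in the mouse only in placenta or brain. Counts per gene do not separate the parental copies, so the measurements are total transcript levels and not imprinting.

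Total counts ranged from 9344779 to 15079960 per library. Jmjd6 itself stood at 52.5, 63.7, 54.6 and 63.7 CPM in wild type replicates 1 to 4 and at 28.7, 28.1, 30.7 and 27.5 CPM in KO replicates 1 to 4, where CPM is a count scaled to the size of its library with TMM factors. The log2 fold change was -1.03 (adjusted p = 0.0381 by edgeR's quasi-likelihood test over all genes), so RNA remained in the libraries labelled KO; whether its reads lie outside the deleted part was not tested. That call was lost in 7 of the 8 fits without 1 library, all but the fit without KO replicate 3. Kit, the receptor used in the sort, lay between 416 and 508 CPM, and Ly6a, which encodes Sca1, between 86.1 and 227 CPM. The T cell transcript Cd3e lay between 0 and 0.063 CPM, with 0 counts in 7 of the 8 libraries. Wild type replicate 4 and KO replicate 3 had 0 counts of 4 Y-linked genes, against 3660 to 4814 in each of the other 6 libraries. Xist, the RNA of the inactive X chromosome, was at 1551 and 893 CPM in them and at 0.206 to 4.93 CPM in the other 6. By these genes wild type replicate 4 and KO replicate 3 read as female and the other 6 as male. Wild type replicate 1 carried the most erythroid and granule marker RNA: 10 granule markers summed to 5229 CPM there, while the remaining 3 wild type libraries held 983 to 1254 CPM and KO libraries 1551 to 2380 CPM. In bulk RNA, fewer cells of a type and less RNA per cell cannot be told apart.

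Promoter windows describe the starts of several of these genes and show which of them share a start. Each window runs from 250 bases before to 50 bases after a transcription start (RefSeq, GRCm38.p6), and 37 of the 49 genes had 1 or more, 53 windows in all. CG dinucleotides, the sites of the methylation imprint, numbered 14 per window in the median over these 53, against 7 over all 32851 windows of the genome. The hexamer TGCCGC, which ZFP57 is known to bind when its CG is methylated, was searched on both strands and found in 13 of the 53 windows (24.5%) and in 3813 of all windows (11.6%). With overlapping windows joined, 11 of 49 stretches held it (22.4%), against 11.6% of all stretches, and by gene 12 of 37 had a match in any window (32.4%), against 13.1% of all genes. The hexamer itself holds a CG, and windows of like CG number were not compared, so these shares are not separated from CG density. A match is a description of letters and not a binding site. The sequences below are examples from the 53 windows, not chosen by the size of a change. They do not stand for the 53, most of which held no match. Each match is in capitals, and the letters run in the direction of transcription. The Snurf window (chr7:60005150-60005449, minus strand) is identical in all 300 bases to a window of Snrpn, and holds 7 CGs. The Mest window (chr6:30737800-30738099, plus strand) holds 17 CGs, and the first Grb10 window (chr11:12037371-12037670, minus strand) 45. The Kcnq1ot1 window (chr7:143296498-143296797, minus strand) holds 9 CGs and no match in these letters.
Snrpn and Snurf: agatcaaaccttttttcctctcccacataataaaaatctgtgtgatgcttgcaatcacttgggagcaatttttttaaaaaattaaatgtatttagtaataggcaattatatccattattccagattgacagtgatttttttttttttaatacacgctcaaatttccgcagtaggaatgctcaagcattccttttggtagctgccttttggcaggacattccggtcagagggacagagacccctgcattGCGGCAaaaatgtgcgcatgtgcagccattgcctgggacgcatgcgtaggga
Mest: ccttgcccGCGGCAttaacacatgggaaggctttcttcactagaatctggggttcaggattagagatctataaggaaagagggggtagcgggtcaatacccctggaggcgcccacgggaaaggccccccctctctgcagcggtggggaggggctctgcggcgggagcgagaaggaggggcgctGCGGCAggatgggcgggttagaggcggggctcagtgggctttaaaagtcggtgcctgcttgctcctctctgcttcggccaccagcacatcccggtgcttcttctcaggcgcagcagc
Grb10: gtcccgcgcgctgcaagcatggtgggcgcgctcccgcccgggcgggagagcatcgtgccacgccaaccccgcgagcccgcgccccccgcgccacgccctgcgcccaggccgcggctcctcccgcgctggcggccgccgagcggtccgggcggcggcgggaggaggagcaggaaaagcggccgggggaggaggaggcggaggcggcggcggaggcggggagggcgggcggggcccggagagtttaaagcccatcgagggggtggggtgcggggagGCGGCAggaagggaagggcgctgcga
Kcnq1ot1: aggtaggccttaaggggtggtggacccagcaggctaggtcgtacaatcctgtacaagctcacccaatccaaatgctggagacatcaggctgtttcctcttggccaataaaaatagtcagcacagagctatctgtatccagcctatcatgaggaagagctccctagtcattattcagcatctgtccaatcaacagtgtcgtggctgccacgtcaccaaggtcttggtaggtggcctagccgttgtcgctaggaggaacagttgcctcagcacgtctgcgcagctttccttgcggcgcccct

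The 49 genes ranged from abundant transcripts to no read at all. Of them 28 passed the filter on low counts, 14 of the 22 maternally and 13 of the 26 paternally expressed genes and Gnas. Of these 28, 5 had a mean of 100 CPM or more over the 8 libraries, namely Cd81, Kcnq1ot1, Gnas, H13 and Ube3a. A further 13 lay between 10 and 100 CPM and 10 below 10 CPM. Per kilobase of exon the order was different. Cd81, a tetraspanin of the cell surface, led at 162 CPM per kb, then Tssc4, a factor of U5 snRNP assembly, at 54, and H13, the signal peptide peptidase, at 31.6. Kcnq1ot1, whose annotated transcript covers 93092 bases, came to 3.66 CPM per kb, and Meg3 was last of the 28 at 0.209. Each length joins all annotated exons of the gene, and the annotation used in counting is unknown, so this order depends on the lengths taken. With nearly equal counts, Snurf came to 10.2 CPM per kb and Snrpn to 1.03.

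**Figure D1:**
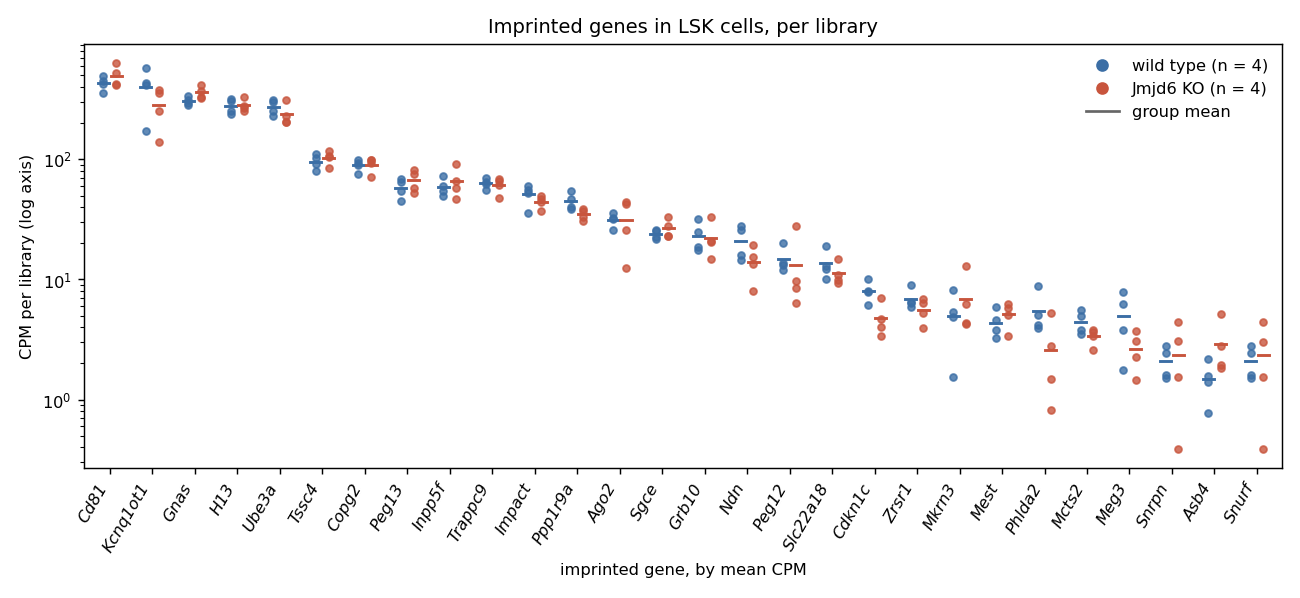
CPM per library on a log axis for the 28 imprinted genes that passed the filter, ordered by mean CPM; points are mice, bars are group means, 4 wild type and 4 Jmjd6 KO. The genotypes overlap in each of the 28, and Phlda2, Snrpn and Mkrn3 have the widest spread, with Snurf, which repeats Snrpn.

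The comparison asked whether loss of Jmjd6 altered the levels of imprinted genes. By edgeR's quasi-likelihood test, adjusted over all 13439 genes tested, 0 of the 28 were called, against 0.0595% of all genes (8 genes), and the smallest adjusted p was 0.772, for Cdkn1c. Unadjusted, 1 of the 28 had p under 0.05 and was lower in KO, where 3.28% of all genes were, and 0 were higher, where 2.78% of all genes were. In 0 of the 28 were the KO and wild type values free of overlap, against 2.11% of all genes with KO lower and 2.08% with KO higher. DESeq2 called 0 of the 28 as well, against 0.492% of all genes with a p, and had 3 of the 28 at an unadjusted p under 0.05, against 6.82%. Limma voom with sample weights called 0 of the 28, against 0.231% of all genes. It had 7 of the 28 at an unadjusted p under 0.05, a larger share than the 9.96% of all genes. The 7 were Asb4, Cdkn1c, Ndn, Peg12, Peg13, Phlda2 and Ppp1r9a.

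Log2 fold changes lay on both sides of 0 in each class. Of the 28, 15 had a log2 fold change below 0 (53.6%), against 50.4% of all genes tested, with a median of -0.03 against 0.00. The 14 maternally expressed genes had a median of -0.06, with 9 below 0, and a range from -1.07 for Phlda2 to 0.94 for Asb4. The 13 paternally expressed genes had a median of 0.15, with 6 below 0, from -0.58 for Ndn to 0.47 for Mkrn3. That last median is -0.01 when Snrpn and Snurf, which share reads, are counted as 1 gene, and -0.29 without KO replicate 3. The 95% interval of the fold change lay within 2-fold either way for 17 of the 28 and within 1.5-fold for 8, so for the other 11 a change of 2-fold in at least 1 direction lay inside the interval.

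**Figure D2:**
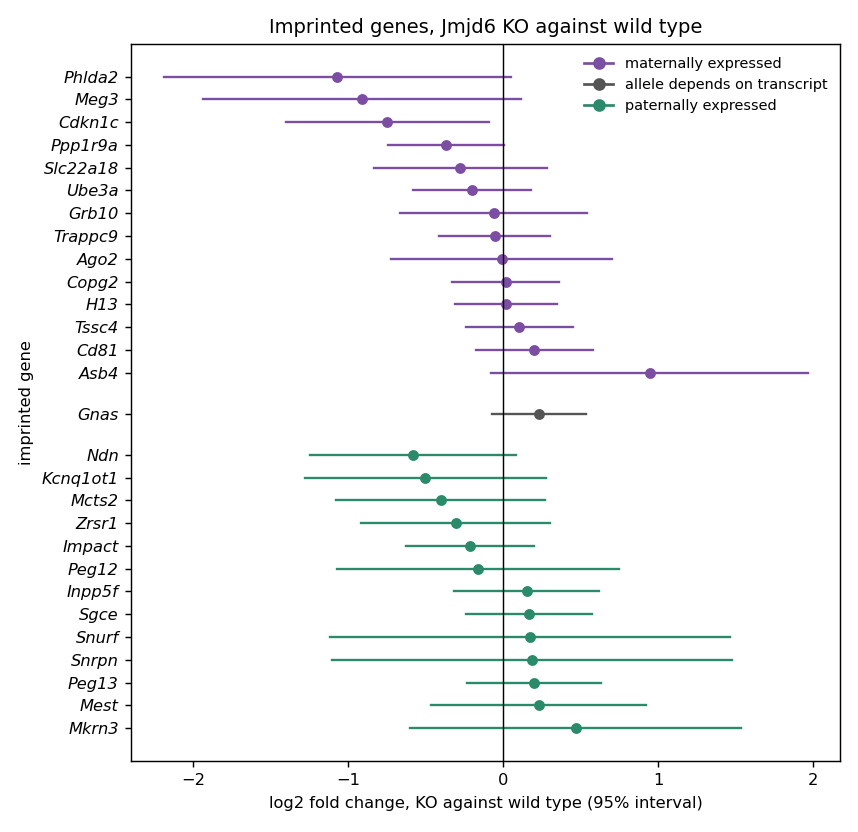
Log2 fold change of KO against wild type with its 95% interval derived from edgeR's test for the 28 tested imprinted genes, by expressed parental copy (4 libraries per group). The interval of Cdkn1c, -1.40 to -0.09, is the 1 of 28 that does not reach 0, before any adjustment for the number of genes.

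The distal chromosome 7 domain of Kcnq1ot1 held the gene with the smallest p. Cdkn1c (chromosome 7, 143458339 to 143461050, minus strand), maternally expressed, encodes p57, an inhibitor of cyclin-dependent kinases known for keeping stem cells quiescent. It stood at 6.18, 8.05, 10.1 and 7.82 CPM in wild type replicates 1 to 4 and at 4.66, 3.39, 7.02 and 4.03 CPM in KO replicates 1 to 4. KO replicate 3, at 7.02 CPM, lay above wild type replicate 1, so the groups overlapped, while the other 3 KO libraries lay below all wild type libraries. The log2 fold change was -0.75 (95% interval -1.40 to -0.09), for which edgeR gave p = 0.0286 unadjusted and 0.772 adjusted, and the two-sided exact permutation p was 0.0571. Without KO replicate 3 the log2 fold change was -0.99 (adjusted p = 0.432 by edgeR), and without KO replicate 2 it was -0.60. By limma voom with sample weights the Cdkn1c value was -1.06 (adjusted p = 0.144). Beside it, 10 of 12 markers of long-term stem cells were lower in KO (83.3%), against 50.4% of all genes tested. Of other markers tested, 7 of 9 erythroid (77.8%) and 5 of 7 megakaryocyte genes (71.4%) were lower too. Granule (4 of 9 lower), macrophage (3 of 8), lymphoid (2 of 7), endothelial (2 of 5) and stromal markers (1 of 2) were split or mostly higher. EdgeR called 0 of the 12 stem cell markers, against 0.0595% of all genes. The groups did not overlap for Hlf, lower in KO (log2 fold change -0.65), and Slamf1, higher in KO (0.93). Of all genes, 2.11% had that pattern with KO lower and 2.08% with KO higher. The 12 summed to 1005 to 1304 CPM in wild type and 839 to 1060 CPM in KO, and all 12 were detected in every library. The part of these markers in the Cdkn1c value was not tested.

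Phlda2 (chromosome 7, 143501545 to 143503150, minus strand), maternally expressed and known as a brake on placental growth, lies beyond Slc22a18 as seen from Cdkn1c. It was at 4.2, 5.05, 3.92 and 8.76 CPM in wild type and 1.5, 0.823, 5.26 and 2.79 CPM in KO. KO replicates 1, 2 and 4 lay below every wild type library, and KO replicate 3 above wild type replicates 1 to 3. The log2 fold change of -1.07 was the lowest of the 28, with an interval of -2.19 to 0.05 and edgeR's adjusted p at 0.817; it was -1.67 without KO replicate 3, -0.75 without wild type replicate 4 and -1.94 by limma voom with sample weights (adjusted p = 0.114). Slc22a18, a transporter of the organic cation family, was at 10.2, 19.2, 12.3 and 12.9 CPM in wild type and 10.9, 9.36, 9.99 and 14.7 CPM in KO (log2 fold change -0.28, and -0.065 without wild type replicate 2).

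At the other side of the domain, Cd81 and Tssc4 had values above 0. Cd81 was at 357, 496, 428 and 449.5 CPM in wild type and 418, 421, 631 and 520.5 CPM in KO, highest in KO replicate 3 (log2 fold change 0.20). Without that library the Cd81 value was 0.066, and by limma voom it was 0.030. Tssc4 was at 79.8, 103, 90.9 and 110.1 CPM in wild type and 104, 84.1, 117 and 107 CPM in KO (log2 fold change 0.10, interval -0.24 to 0.45, and 0.035 without KO replicate 3). The pair are neighbours on the plus strand, and their log2 CPM correlated across the 8 libraries, with Pearson's r = 0.81 (exact permutation p = 0.0113, adjusted 0.034 over 3 pairs) and Spearman's rho = 0.76 (exact permutation p = 0.0368, adjusted 0.11). Without wild type replicate 1 and KO replicate 3, the libraries farthest from the median of Cd81, r was 0.53, so the relation rests in part on those libraries.

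Kcnq1ot1 (chromosome 7, 143203458 to 143296549, minus strand) is the paternally expressed, unspliced nuclear RNA that silences its neighbours on the same chromosome. Levels ranged widely in both genotypes: wild type replicates 1 to 4 held 572, 173, 436 and 416 CPM and KO replicates 1 to 4 359.7, 376, 251 and 139.7 CPM. Wild type replicate 2 lay below 3 of the KO libraries, and KO replicate 4 was lowest of all. Its log2 fold change was -0.50 (interval -1.28 to 0.28, adjusted p = 0.833 by edgeR), and -0.75 without wild type replicate 2 (adjusted p = 0.869). Other fits gave smaller values, -0.28 without KO replicate 4, -0.27 with wild type replicate 1 left out and -0.26 by limma voom. Kcnq1, the potassium channel gene on the opposite strand that overlaps it, had 50 counts in the 8 libraries together and shares 121 exonic bases with it. The balance of long against short transcripts differed between libraries as well. Genes in the top 10% of exon length (from 9606 bases) minus those in the bottom 10% gave mean log2 deviations of 0.22, 0.00, 0.30 and 0.04 in wild type and 0.13, 0.08, -0.31 and -0.47 in KO. KO replicates 3 and 4 were lowest on this measure, and its part in the Kcnq1ot1 value was not tested.

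**Figure D3:**
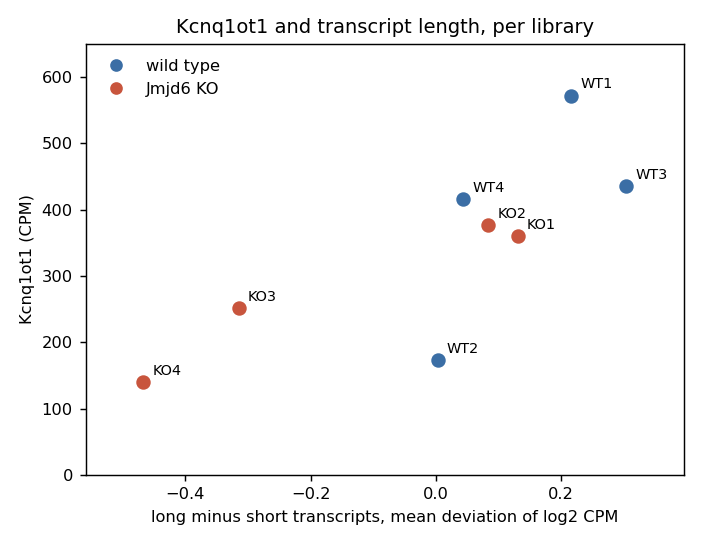
Kcnq1ot1 in CPM against the mean log2 deviation of long minus short transcripts in each of the 8 libraries, wild type and KO. KO replicate 4 is lowest on both axes, at 139.7 CPM and -0.47; wild type replicates 1 and 3 are highest on both, and wild type replicate 2 lies apart at 173 CPM with a balance near 0.

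In the central chromosome 7 domain, the genes between Peg12 and Ube3a are known in humans from Prader-Willi and Angelman syndromes. Ndn, which encodes necdin, a growth suppressor of the MAGE family known in haematopoietic stem cells, stood at 14.5, 27.9, 15.9 and 25.8 CPM in wild type and 8.01, 15.4, 13.5 and 19.4 CPM in KO. KO replicate 1 was lowest, and KO replicates 2 and 4 lay within the wild type range. For Ndn the log2 fold change was -0.58 (interval -1.25 to 0.08, adjusted p = 0.832 by edgeR). Without KO replicate 1 it was -0.37. Ube3a, a ubiquitin ligase gene that is maternally expressed in neurons, was at 312, 252, 300.2 and 230.1 CPM in wild type and 229, 313, 204 and 205 CPM in KO (log2 fold change -0.20, from -0.34 without KO replicate 2 to -0.12 without wild type replicate 1). Its exons share 1803 bases with the antisense transcript Snhg14, which held at most 1.51 CPM in any library.

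Other paternally expressed genes of this domain turned on KO replicates 3 and 4. Snrpn, which encodes the spliceosomal protein SmN, was at 2.43, 1.6, 1.51 and 2.77 CPM in wild type and 3.08, 1.54, 4.42 and 0.387 CPM in KO, from 5 counts in KO replicate 4 to 58 in KO replicate 3. Snurf, an upstream reading frame on the same transcript, had the same count as Snrpn in 7 of the 8 libraries and 1 count fewer in KO replicate 1. All 216 of its annotated exon bases lie in Snrpn, so both rows count the same reads. The log2 fold change of Snrpn, 0.18, had an interval of -1.11 to 1.48 and was -0.32 without KO replicate 3 and 0.54 without KO replicate 4. Mkrn3, a makorin ubiquitin ligase gene known as a brake on puberty, was at 1.55, 8.25, 5.32 and 4.86 CPM in wild type and 4.22, 4.32, 13 and 6.2 CPM in KO. Its log2 fold change went from 0.47 to -0.034 without KO replicate 3, its highest library, and to 0.82 without wild type replicate 2. Peg12, a Frat family gene, was at 13.3, 12, 13.8 and 20.1 CPM in wild type and 9.68, 8.43, 28.1 and 6.43 CPM in KO (log2 fold change -0.16, and -0.85 without KO replicate 3). In KO replicates 1, 2 and 4 Peg12 lay below all 4 wild type libraries, and in KO replicate 3 above them. Magel2, the MAGE gene next to Ndn, had 6 counts in all.

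**Figure D4:**
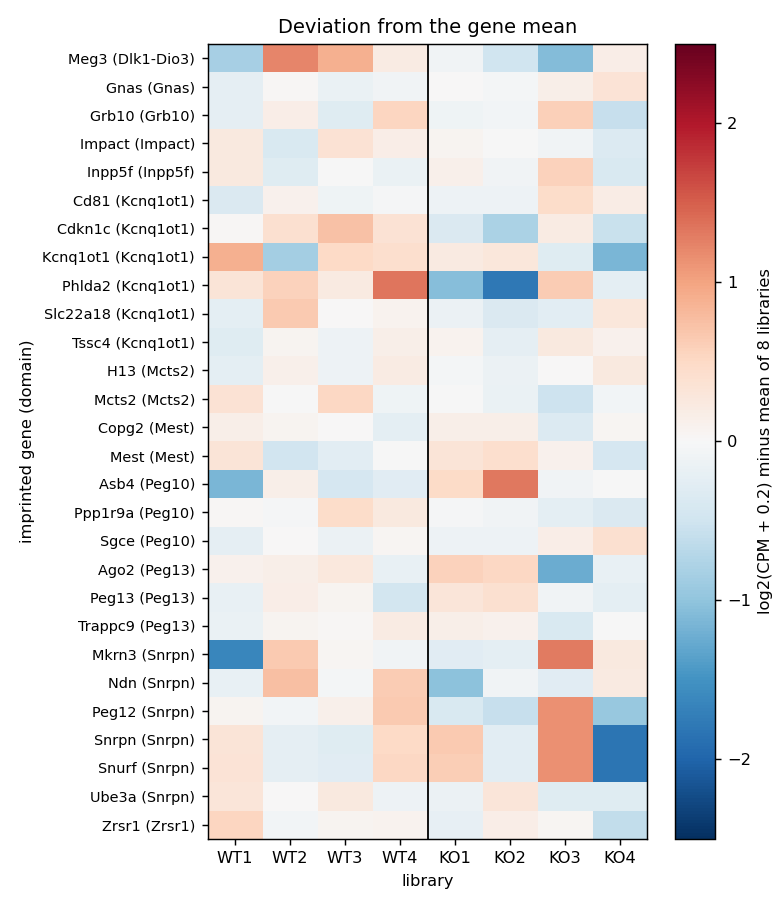
Log2(CPM + 0.2) of the 28 tested imprinted genes minus each gene's mean over 8 libraries, grouped by domain; columns are libraries, red is above and blue below the gene's mean. KO replicates 3 and 4 take opposite colours for Peg12, Snrpn, Snurf and Grb10, and Phlda2 is lowest in KO replicate 2.

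Among genes for growth signals, Grb10 (chromosome 11, 11930508 to 12038683, minus strand), an adaptor that restrains insulin and IGF1 receptor signalling, was at 18.7, 24.7, 17.7 and 31.8 CPM in wild type and 20.4, 20.9, 33.2 and 14.7 CPM in KO. Both groups covered nearly the same range, and the log2 fold change was -0.06 (interval -0.66 to 0.54). Gnas, which encodes the stimulatory G protein alpha subunit, was at 285, 339, 294 and 312 CPM in wild type and 332, 322, 369 and 419.8 CPM in KO. Its log2 fold change was 0.23 (interval -0.07 to 0.53, adjusted p = 0.832 by edgeR), with KO replicate 2 below wild type replicate 2, and it was 0.15 without KO replicate 4. The transcripts of Gnas, which differ in their active parental copy, were not separated. The ligand Igf2 had 5 counts over the 8 libraries and the noncoding RNA H19 28, of which 12 were in KO replicate 4 and 8 in wild type replicate 3. Plagl1, a growth-suppressing zinc finger gene, had 28 counts, 15 of them in wild type replicate 4.

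The chromosome 12 domain was represented by its first noncoding RNA. Meg3 (chromosome 12, 109541001 to 109571726, plus strand), maternally expressed and known as a marker of long-term stem cells in mouse fetal liver, was at 1.77, 7.91, 6.23 and 3.78 CPM in wild type and 3.08, 2.26, 1.45 and 3.72 CPM in KO. Wild type replicate 1, at 1.77 CPM, lay within the KO range, and wild type replicates 2, 3 and 4 lay above every KO library. The log2 fold change was -0.91 (interval -1.94 to 0.12, adjusted p = 0.832 by edgeR), -0.58 without wild type replicate 2 and -1.16 without wild type replicate 1. Rian and Mirg, the noncoding RNAs that follow it and host small RNAs, had 30 and 1 counts in all. Dlk1, a transmembrane ligand gene, had 17 counts, the retrotransposon-derived Rtl1 7, and the deiodinase gene Dio3 had 0 in every library, which allows up to 3 counts or 0.0309 CPM over the 8 libraries.

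On proximal chromosome 6, Ppp1r9a and Asb4 had the lowest and highest values of their domain. Ppp1r9a, which encodes neurabin, was at 40.4, 39, 54.3 and 47.1 CPM in wild type and 39, 37.4, 33.2 and 30.6 CPM in KO. KO replicate 1 lay at the level of wild type replicate 2, and KO replicates 2, 3 and 4 below all wild type libraries (log2 fold change -0.37, interval -0.74 to 0.01, adjusted p = 0.812 by edgeR). Asb4, an ankyrin and SOCS box gene, was at 0.773, 2.19, 1.41 and 1.58 CPM in wild type and 2.81, 5.14, 1.83 and 1.94 CPM in KO, highest in KO replicate 2 (log2 fold change 0.94, interval -0.08 to 1.97, and 0.56 without that library). Sgce, which encodes epsilon-sarcoglycan, was at 21.5, 25.4, 22.7 and 25.8 CPM in wild type and 23, 22.9, 28 and 33.2 CPM in KO (log2 fold change 0.17, and 0.045 without KO replicate 4). Peg10, which starts beside Sgce on the opposite strand, had 8 counts in all.

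Farther along chromosome 6, Mest, a gene of a hydrolase-like protein, was at 5.85, 3.26, 3.82 and 4.6 CPM in wild type and 5.81, 6.27, 5.03 and 3.41 CPM in KO (log2 fold change 0.23, from 0.11 without wild type replicate 2 to 0.41 without wild type replicate 1). Copg2, a COPI coat subunit gene whose end overlaps that of Mest by 912 exonic bases on the other strand, was at 99.2, 93.4, 89.8 and 75.1 CPM in wild type and 98.5, 99.2, 70.8 and 92.7 CPM in KO (log2 fold change 0.02, interval -0.33 to 0.36). Whether strand was used in counting is unknown here, so reads in that overlap may not have been told apart. Klf14 had 6 counts and Nap1l5, a retrogene within Herc3, 10.

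The chromosome 15 domain was detected in LSK cells through Trappc9, Peg13 and Ago2. Ago2, the slicing argonaute of RNA interference, was at 31.8, 32.8, 35.6 and 26 CPM in wild type and 44.3, 42.6, 12.4 and 26 CPM in KO, lowest in KO replicate 3 and highest in KO replicates 1 and 2. Its log2 fold change of -0.01 was 0.26 without KO replicate 3. Trappc9, a subunit of a vesicle tethering complex, was at 55.2, 64.5, 62.5 and 70.6 CPM in wild type and 68.4, 66.1, 47.4 and 61.4 CPM in KO (log2 fold change -0.06). Trappc9 and Ago2 correlated across the 8 libraries with r = 0.76 (exact permutation p = 0.0446, adjusted 0.0669 over 3 pairs) and rho = 0.57 (exact permutation p = 0.151, adjusted 0.227), but r was 0.15 without wild type replicate 1 and KO replicate 3, so it rests on those libraries. Peg13, a paternally expressed noncoding RNA within Trappc9, was at 54.1, 69.2, 65 and 44.8 CPM in wild type and 75.7, 81.9, 58.3 and 52.3 CPM in KO (log2 fold change 0.20, from 0.093 without wild type replicate 4 to 0.30 without KO replicate 4). Kcnk9, a potassium channel gene, had 3 counts, all in wild type replicate 3.

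The paternally expressed retrogenes that lie within other genes had low levels. Mcts2 was at 4.97, 3.79, 5.52 and 3.53 CPM in wild type and 3.78, 3.39, 2.59 and 3.64 CPM in KO (log2 fold change -0.40, interval -1.08 to 0.27). H13, its host, whose transcripts are known to end early on the copy that expresses Mcts2, was at 237, 305, 255 and 320.2 CPM in wild type and 270.3, 252, 280.0 and 329 CPM in KO (log2 fold change 0.02, interval -0.31 to 0.35). The pair gave r = -0.44 across libraries (exact permutation p = 0.285, adjusted 0.285 over 3 pairs), rho = -0.31 (exact permutation p = 0.462, adjusted 0.462), and r = -0.51 without KO replicate 4 and wild type replicate 4. Zrsr1, a splicing factor retrogene within Commd1, was at 8.94, 5.85, 6.43 and 6.56 CPM in wild type and 5.28, 6.89, 6.33 and 3.95 CPM in KO (log2 fold change -0.31, and -0.15 without wild type replicate 1). Zrsr1 shares 412 exonic bases with Commd1 on the other strand.

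Among the remaining genes, Inpp5f, a phosphoinositide phosphatase gene, was at 73, 49.3, 60.5 and 54.4 CPM in wild type and 66.6, 57.9, 91.6 and 47.1 CPM in KO (log2 fold change 0.15), highest in KO replicate 3 and -0.050 without it. Impact, an inhibitor of the translation kinase GCN2, was at 55.5, 36.1, 60.6 and 52.5 CPM in wild type and 49.1, 46.6, 44 and 36.9 CPM in KO (log2 fold change -0.21, from -0.35 without wild type replicate 2 to -0.12 without wild type replicate 3). Both groups overlapped for each of these genes. In all, 21 of the 49 did not pass the filter, 20 of them with 1 to 59 counts over the 8 libraries. Among those not yet named, the zinc finger gene Peg3 had 59 counts, from 0 in wild type replicate 4 and KO replicate 3 to 23 in KO replicate 2. Usp29, a ubiquitin protease gene that starts beside Peg3 on the other strand with 263 shared bases in their promoter windows, had 25. Ascl2 had 48 counts, Ddc 47, Nnat 34, Rasgrf1 8 and Zim1 2. Fitted without the filter, 48 of the 49, all but Dio3, were tested by edgeR. Of the 48, 0 were called, against 11 of all 22817 genes in that fit. The 2 with an unadjusted p under 0.05 were Cdkn1c and Phlda2. The share of all genes under that cut in this fit is not given here, so the 2 are not read as an excess.

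Genes that set or keep imprints were measured alongside. Of 30 listed, 26 were tested and 0 were called by edgeR, against 0.0595% of all genes. By edgeR, 1 had an unadjusted p under 0.05 and was lower in KO, where 3.28% of all genes were. On the log2 scale 17 of the 26 lay below 0 (65.4%), against 50.4% of all genes, and the median of the 26 was -0.06. Arid4b, a chromatin factor gene known to affect imprint control in mice, was at 217, 169, 213 and 175 CPM in wild type and 146, 168, 118 and 154 CPM in KO, without overlap (log2 fold change -0.40, adjusted p = 0.772 by edgeR). Its relative Arid4a gave -0.23, the de novo methyltransferase gene Dnmt3a -0.30 and the acetyltransferase gene Naa10 0.26, the last without overlap of the groups. So 1 of the 26 was without overlap and lower in KO, against 2.11% of all genes, and 1 higher, against 2.08%. Zfp57, named here for the hexamer above and outside the rule for naming genes, was at 5.08, 5.52, 8.44 and 8.89 CPM in wild type and 8.8, 10.5, 10.1 and 7.51 CPM in KO (log2 fold change 0.40, adjusted p = 0.833 by edgeR).

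Host and neighbouring genes of the imprinted domains, 39 tested of 45 listed, gave 0 calls by edgeR, against 0.0595% of all genes. At an unadjusted p under 0.05 by edgeR, 1 was lower in KO and 1 higher, against 3.28% and 2.78% of all genes. Of the 39, 25 lay below 0 (64.1%), against 50.4% of all genes, and the median was -0.04. Phactr2, next to Plagl1, was at 63.9, 41.2, 43.8 and 58.9 CPM in wild type and 39.7, 38.4, 32.9 and 25.7 CPM in KO, without overlap (log2 fold change -0.60, adjusted p = 0.746 by edgeR). Fignl1, near Grb10, was at 134, 113, 123 and 127 CPM in wild type and 144, 156, 204 and 169 CPM in KO, also without overlap (log2 fold change 0.44, adjusted p = 0.74 by edgeR). Herc3, the host of Nap1l5, gave -0.56 and Mrpl23, beside H19, 0.41. Of these 39, 2 had groups without overlap and KO lower, against 2.11% of all genes, and 1 with KO higher, against 2.08%.

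Markers of other cell types were measured as well. Of 10 markers of mesenchymal stroma, in which H19, Igf2 and Dlk1 are known to be abundant, 2 passed the filter, Pdgfrb and Col1a2. The list summed to 33.2 to 66.5 CPM in wild type and 28.8 to 88.1 CPM in KO, most of it Pdgfrb. Col1a2 reached 8.83 CPM, in wild type replicate 4, and Cxcl12 1.66 CPM, and these 3 were detected in all 8 libraries. The other 7 had 2 counts (Adipoq) to 38 counts (Lepr) in all, and none of the 10 was at 0 throughout. Of 8 endothelial markers 5 passed, and the list summed to 96.0 to 169 CPM in wild type and 121 to 198 CPM in KO, most of it Pecam1 and Emcn, which stem cells express too, with Cdh5 at no more than 0.441 CPM. The part of these cells in the levels of imprinted genes was not tested.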

How the data were processed

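The deposited table holds whole-number counts of reads per gene symbol, 1 column per mouse; reads were aligned with HISAT2 to mm10, per the submitters' processing notes. The counting tool, its annotation and its use of strand have no mention in these sources, so overlapping genes may share reads. Columns were matched to samples by genotype and number. The 49 genes, their parental class and all lists were chosen with earlier results of these data known.

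KO was compared with wild type over all genes with edgeR 4.0.16 (quasi-likelihood, TMM, default filter with min.count 10 and min.total.count 15, Benjamini-Hochberg, called under 0.05) in R 4.3.3. The common biological coefficient of variation was 27.8%. Intervals of fold changes are 95% intervals derived from the fit and include the spread between mice. Their standard error is the absolute log2 fold change divided by the square root of edgeR's F statistic, multiplied by a t quantile. Floors (3 counts) cover counting error only. Log2 CPM used a prior count of 2. Single genes were compared by two-sided exact permutation of 4 against 4 libraries, whose smallest p is 0.0286. The script was tested on simulated counts. Replicates of each genotype differed by a chi-square per degree of freedom of 6.56 to 86.9, so none was counted as a repeat. Correlations were computed for 4 of 11 listed pairs; Snrpn and Snurf, which count the same reads, were left out of the adjustment, a choice made after seeing the data.

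Alternatives were other scalings, other filters, a replicate block, leaving out each library, the 6 libraries with Y-linked counts, limma 3.58.1 voom with sample weights, DESeq2 1.42.0 and a threshold of 0.1; counting Snrpn and Snurf as 1 gene was chosen after seeing the data. Every listed gene is named; values in each library are given for those that passed the filter with a mean of 1 CPM or more, and up to 4 genes of each further list by p. Positions and exon lengths are from GENCODE M21 (GRCm38, the build that mm10 names), and all 49 symbols matched. Splicing, transcripts and parental copies were not analysed here.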

Additional observations from a re-analysis of the deposited data

Results flagged for a closer look

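Peg12 in the KO group was singled out because 1 library stood far from the other 3: KO replicate 3 held 28.1 CPM, against 6.43 to 9.68 CPM in KO replicates 1, 2 and 4. Of 56 groups of 4 libraries examined (28 genes, both genotypes) this was the 1 that passed. Chance alone gives about 1 in 20 groups, so 1 of 56 is no more than chance gives. Snrpn and Snurf, which repeat each other, both count among the 28, and the share of all genes that pass is not given here. KO replicate 3 has no Y-linked counts, as has wild type replicate 4, which held the highest Peg12 level of the wild type group at 20.1 CPM; the part of sex or of that library in the value was not tested.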

How the results depend on the processing

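The count of imprinted genes called was 0 in every alternative run. The count of all genes called, 8 by edgeR, was 66 by DESeq2, 31 by limma voom, 4 in the 6 libraries with Y-linked counts, 3 with the replicate block, and 2 to 8 with single libraries left out. Same-numbered libraries share no stated source, and their deviations correlated at 0.03, -0.01, -0.18 and -0.19. Other pairs of libraries were not compared, so these values cannot show whether the numbers pair the mice. The call of Jmjd6 was lost with the block, in the 6 libraries and in 7 of the 8 fits without 1 library, at log2 fold changes of -1.06 to -0.99. The median of the paternally expressed genes ran from -0.29, without KO replicate 3, to 0.14 with single libraries left out; the cause was not tested. Of the 28 genes, 10 turned sign in at least 1 alternative, among them Mkrn3, whose value was 0.47 over all libraries. By limma voom Ago2 gave 0.28, Trappc9 0.060, H13 -0.016, Snrpn -0.053 and Snurf -0.068. In the 6 libraries with Y-linked counts Ago2 gave 0.17, Trappc9 0.10, Inpp5f -0.091, Mkrn3 -0.055, Snrpn -0.14 and Snurf -0.17. Cdkn1c kept its sign in those 6, at -1.01 (adjusted p = 0.667 by edgeR). There 3 of the 28 had an unadjusted p under 0.05 by edgeR, namely Cdkn1c, Peg12 and Phlda2. The share of all genes under that cut in those 6 libraries is not given here. With library size only Copg2 gave -0.034 and H13 -0.040, and with the replicate block Snrpn gave -0.10 and Snurf -0.12. With single libraries left out the ranges were -0.21 to 0.26 for Ago2, -0.060 to 0.12 for Copg2, -0.32 to 0.13 for Grb10, -0.062 to 0.092 for H13, -0.050 to 0.28 for Inpp5f, -0.034 to 0.82 for Mkrn3, -0.85 to 0.066 for Peg12, -0.32 to 0.54 for Snrpn, -0.35 to 0.53 for Snurf and -0.10 to 0.047 for Trappc9. The other 18 genes kept their sign in each alternative run.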

Other observations

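Wild type replicate 4 and KO replicate 3, the libraries without Y-linked counts, were each the highest of their genotype for Grb10, Peg12, Phlda2, Tssc4 and the Snrpn-Snurf transcript, 6 of the 28 rows (21.4%), where 14.4% of all genes tested had that pattern. They were each the lowest for Ago2, Copg2, Mcts2 and Ube3a, 4 of 28 (14.3%), against 15.6% of all genes. The pattern was looked for after seeing the values.

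Nnat, which encodes the membrane proteolipid neuronatin, did not pass the filter and held 6, 13, 3 and 4 counts in the wild type and 5, 2, 1 and 0 counts in the KO libraries, in replicate order. Magel2 and Klf14 each had 6 counts in the wild type libraries and 0 in the KO libraries, at a depth where the floor of 3 counts over the KO group is 0.0637 CPM. Peg3 had 18 counts in wild type and 41 in KO, 23 of them in KO replicate 2. The two-sided exact permutation p was 0.114 for Nnat, 0.429 for Magel2 and Klf14 and 0.343 for Peg3, unadjusted, and edgeR called none of the 4 in the fit without the filter.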
